A study of Homo sapiens with 9 samples.

Results

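Of the 67528 transcript clusters measured on the arrays, 42204 (62.5%) carried no gene symbol in the annotation of the array platform, and these are described here. They were chosen by that missing symbol alone, with no use of their measured values. A further 23781 clusters carried 1 symbol and 1543 carried several. A transcript cluster is a set of probes that the array design groups as 1 transcribed stretch. A cluster with no symbol can be an intergenic or antisense transcript, a small RNA, a repeat copy or part of a gene that later annotation has named, and the files do not say which. No name or role is therefore given to any of them, and their IDs (TC, the chromosome, then a running number) are the names used.

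The cells were labelled SH-SY5Y, a human neuroblastoma cell line. They were left untreated or were exposed to 20 nM or 60 nM okadaic acid for 12 h, with 3 arrays per group. All groups were kept in medium with lowered serum during the exposure. Okadaic acid is a marine toxin that inhibits the serine/threonine protein phosphatases PP2A and, at higher concentrations, PP1, so that phosphorylation of many proteins rises in exposed cells. The arrays taken here as 60 nM are given that dose by their source name and the series design, while their treatment field reads 20 nM. Nothing in the labels says that the arrays called biological replicates came from separate cultures, and the spread behind each p-value may be technical.

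Genomes are transcribed well beyond named genes. Many of the resulting RNAs are long noncoding transcripts, transcripts read from the opposite strand of a gene, extensions past the end of a gene, or small nuclear and nucleolar RNAs made from multicopy genes. Array designs of this generation gathered such transcripts from cDNA collections and public databases, often before they had a name.

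Values are log2 intensities, and array medians of the unnamed clusters lay between 4.04 and 4.20. Of the noradrenergic neuroblastoma markers 11 were measured and 2 were above background (GATA2 and GATA3), while PHOX2A, HAND2, TH, DBH, CHGA, CHGB and DDC were not. Of the mesenchymal markers 4 of 5 were above background (VIM at 11.51 and CD44 at 10.48 among them), as were 3 of 5 epithelial ones (KRT8 at 13.34 and KRT18 at 12.56). None of the 3 leukocyte and 3 glial markers measured was above background. At 60 nM 2 noradrenergic and 2 mesenchymal markers passed the limma test as higher and 1 of each as lower, and their part in the results was not tested.

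Most unnamed clusters lay below the background level. Background was set at 5.82, the 95th percentile of 23 probe sets of the AFFX-BkGr kind over all 9 arrays. These sets hold probes with no target in the genome, sorted by their number of G and C bases. Their median was 3.23. The set with 3 such bases, with a mean of 6.19, lay above the level on every array, and no other set did on any. The set with 4 had a mean of 5.82 and the others at most 4.96, so the level rests on the sets with fewest such bases. The untreated mean of the unnamed clusters had a median of 4.12, against 5.21 for clusters with 1 symbol. Of the unnamed clusters 8266 (19.6%) lay above background in untreated cells, against 43.1% of those with 1 symbol. Clusters with a symbol of a noncoding type (such as microRNA, small nucleolar or antisense genes) were close to the unnamed ones, with 20.8% of 3565 above background.

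The distribution had a long upper tail, with 1788 unnamed clusters (4.24%) over 10 in untreated cells. At the highest single background value (6.84) as the level, 5501 unnamed clusters (13.03%) were above it. At the median of the background sets plus 1 log2 unit (4.23), 19414 (46.0%) were above it. The order of unnamed and 1-symbol clusters was the same under both, with 32.2% and 67.9% of 1-symbol clusters above.

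**Figure D1:**
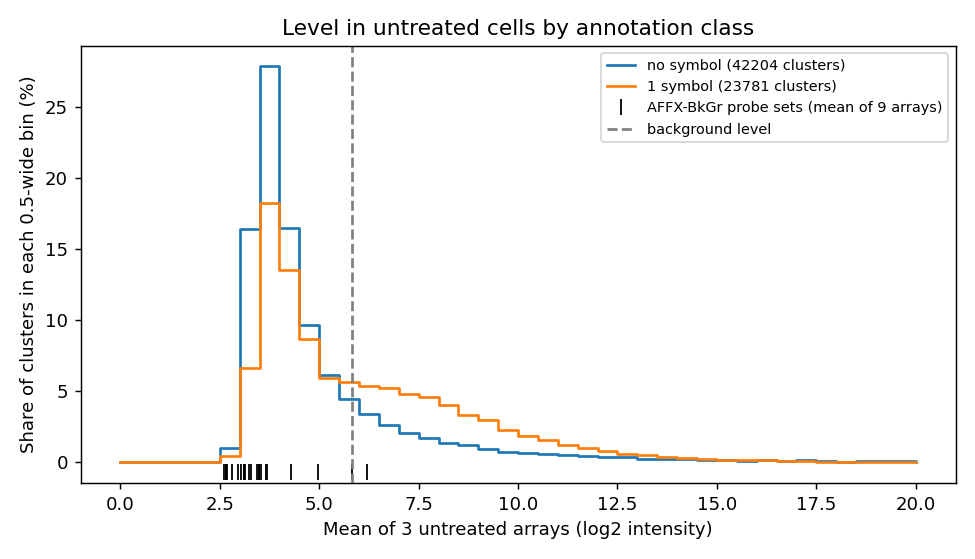
Share of clusters (%) in 0.5-wide bins of the mean log2 intensity of the 3 untreated arrays, for clusters without a symbol and with 1 symbol. Ticks mark the 23 AFFX-BkGr sets and the dashed line the background level of 5.82. Both classes peak below the line, and 19.6% of the unnamed clusters lie to its right against 43.1% of those with 1 symbol.

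The share of unnamed clusters above background was 19.5% ± 0.063 (SD, n = 3) on the untreated arrays, 19.4% ± 0.18 at 20 nM and 20.0% ± 0.21 at 60 nM. The 3 arrays at 60 nM all exceeded the untreated ones. With 3 arrays against 3 a two-sided exact permutation test cannot go below p = 0.1, the value found. The difference was 0.452 percentage points. The array median of the unnamed clusters was also higher at 60 nM, 4.16 ± 0.034 against 4.12 ± 0.0052, with the same exact p of 0.1. At 20 nM the corresponding exact p-values were 0.3 for the share and 1 for the median. The replicate 2 array at 20 nM stood somewhat apart, with the lowest mean correlation to its own group (0.990) and the lowest median (4.04). Without it the limma test described below called 2601 unnamed clusters at 60 nM and 11 at 20 nM against untreated cells, and 2579 between the doses.

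The running numbers followed the order of named genes over a part of each chromosome's IDs. Clusters with 1 symbol were set against RefSeq genes of assembly GRCh38.p14, used for names and gene order only because the build of the array is not given in the sources used here. Of 20518 such clusters on numbered, X or Y chromosomes, 99.7% lay on the chromosome in the ID. Of 19154 successive pairs ahead of the long stretches described next, 98.5% followed the order of the genes. Where the strand was known, the numbers ran through genes of the forward strand (99.6% of 6972) and then through genes of the reverse strand (99.8% of 6809). Then came 1 long stretch of numbers per chromosome with no symbol at all, followed by a further 8 to 132 clusters with symbols. The long stretch held between 122 and 2160 clusters, and the next longest stretch without a symbol had between 7 and 124. No named cluster lies inside the long stretch, so no place on the chromosome was found for its members.

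The unnamed clusters fell into 22723 in the long stretches, 19124 outside them and numbered among named genes, and 357 on the mitochondrial chromosome or on other sequences. Of those in the long stretches 16.9% were above background in untreated cells, and of those among named genes 22.6%. No test was made between these sets.

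By chromosome, the share above background ran from 144 of 1111 on chromosome 13 and 13.5% on chromosome 21 to 27.2% on chromosome 17, 29.0% on chromosome 19 and 29.8% on chromosome 16. Chromosomes 16, 17 and 19 are known as gene-rich and chromosome 13 as gene-poor. Chromosome 22, also taken as gene-rich, had 18.6% above background. Chromosomes 4, 18 and X, also taken as gene-poor, had 16.2%, 15.7% and 25.3%. A link with gene density was not tested.

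The brightest unnamed clusters were mitochondrial. The mitochondrial genome encodes ribosomal and transfer RNAs and subunits of the respiratory chain, and copies of mitochondrial sequence are known in nuclear chromosomes. All 22 clusters of chromosome M lacked a symbol and all were above background, with a median of 19.35. TC0M000012 and TC0M000027 shared 1 row of values and were the brightest, at 19.86, 19.86 and 19.87 in untreated cells, 19.78, 19.93 and 19.82 at 20 nM, and 19.92, 19.87 and 19.89 at 60 nM. The 3 groups overlapped, and the difference at 60 nM was 0.03 (SE 0.04, limma adjusted p = 0.844).

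That row was repeated exactly in 5 nuclear unnamed clusters, TC02000740, TC04000491, TC04001102, TC07001932 and TC09000152, so these were among the 8 brightest as well. TC0M000005 completed those 8, at 19.83 ± 0.0041 (SD, n = 3) in untreated cells. None of the 22 mitochondrial clusters passed the limma test in any comparison. At an unadjusted p under 0.05 there was 1 at 60 nM, 5 at 20 nM and 1 between the doses. Whether clusters this bright were saturated was not tested.

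Identical rows were not confined to mitochondrial sequence. In all, 1480 unnamed clusters (3.51%) shared all 9 values, to 6 decimals, with at least 1 other cluster, against 3.32% of 1-symbol clusters. They formed 415 groups, 132 of which spanned more than 1 chromosome label. The largest group had 35 unnamed clusters under 11 chromosome labels, with a mean of 7.72 in untreated cells and 8.75 at 60 nM (limma adjusted p = 0.121). A single value on all 9 arrays was found for 57 unnamed clusters. Clusters that share a row cannot be told apart by these values. Counts of distinct rows are given for the calls at 60 nM, the largest rises and chromosome 16. Elsewhere each cluster of a shared row is counted, unless stated.

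At 60 nM, 1157 unnamed clusters were higher and 1240 lower than in untreated cells at a limma adjusted p (Benjamini-Hochberg) under 0.05. That is 5.68% of the unnamed clusters, against 10.2% of all 67528 clusters (4.13% higher and 6.06% lower) and 17.6% of those with 1 symbol. Of the 3565 clusters with a symbol of a noncoding type, 3.93% were called. Counted as distinct rows, 1116 of the unnamed clusters were higher and 1200 lower. In all 2397 the 3 arrays at 60 nM did not overlap the 3 untreated arrays, as in all 6878 clusters called over the whole array (10.2%). In a bulk measurement, more RNA per cell and more cells that make it cannot be told apart. The median difference over all unnamed clusters was 0.03. Without untreated replicate 2 the count fell to 1521 (691 higher and 830 lower), and without any other single array it lay between 1682 and 2601.

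The share that changed followed the level. Of unnamed clusters at or below background in both groups, 1.61% were called. The share was 16.7% between background and 8, 26.5% between 8 and 10, 30.6% between 10 and 12, and 24.7% over 12. Clusters with 1 symbol were called more often in each of these bins, at 31.4%, 38.7%, 43.0% and 39.0% above background. Over all unnamed clusters with a group mean above background, 1859 of 8803 (21.1%) were called. The share was 35.7% for those with 1 symbol and 12.9% for those with a symbol of a noncoding type. The remaining 538 called unnamed clusters were below background in all groups, where a difference is reproducible in these arrays but its size cannot be read as a fold.

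At least 2-fold differences were found for 346 unnamed clusters that rose (0.82%) and 290 that fell (0.687%), against 1.25% and 0.89% of all clusters and 2.01% and 1.25% of those with 1 symbol. No filter on level was set for these counts. They include clusters below background in all groups, whose differences cannot be read as a fold. The largest rises and falls were ranked among called clusters with a group mean above background. Of these, 820 unnamed, 1318 1-symbol and 90 several-symbol clusters rose, and 1039, 2435 and 168 fell. Unnamed clusters made up 5 of the 10 and 42 of the 100 largest rises, and 7 of the 10 and 55 of the 100 largest falls. The 100 largest rises, named and unnamed, held 91 distinct rows. The largest rise (7.82) and the largest fall (-4.28) were both unnamed, while the extremes among called 1-symbol clusters were 6.46 and -2.54.

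**Figure D2:**
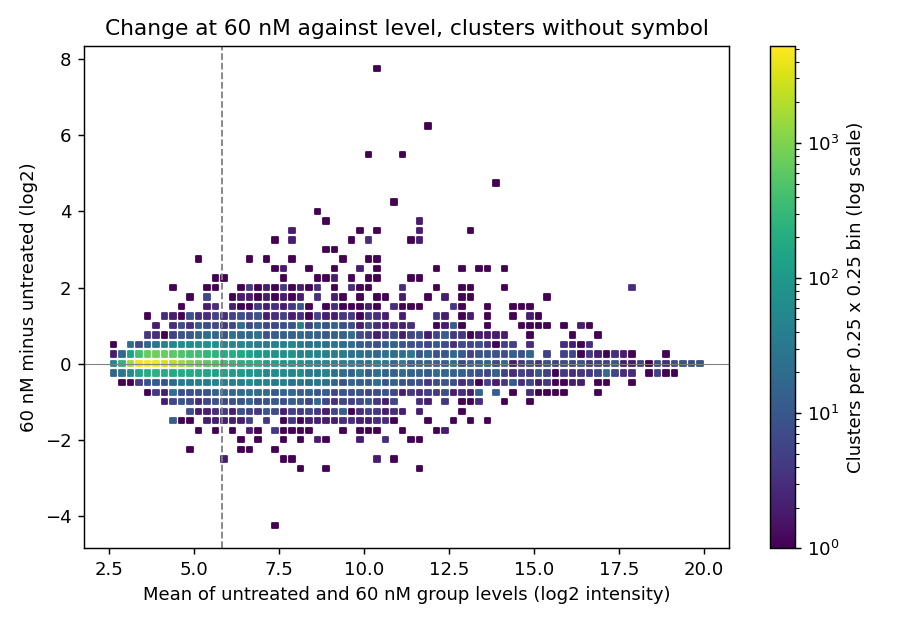
Difference at 60 nM (log2) against the mean of the untreated and 60 nM levels (log2 intensity) for the 42204 clusters without a symbol, as the number of clusters per bin. Colour is on a log scale and the dashed line is the background level of 5.82. Most clusters lie near 0 below the line, and the range runs from -4.28 to 7.82.

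TC17002040 on chromosome 17 had the largest rise. It read 6.57, 6.46 and 6.52 in untreated cells, 6.78, 6.85 and 7.13 at 20 nM, and 14.24, 14.35 and 14.44 at 60 nM. It was just above background without okadaic acid and among the bright clusters with 60 nM, a difference of 7.82 (SE 0.09, limma adjusted p = 1.62e-07). At 20 nM the difference was 0.40 and missed the test (adjusted p = 0.659).

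TC17002216, also on chromosome 17, read 8.45, 8.91 and 8.72 in untreated cells, 10.77, 10.33 and 10.71 at 20 nM, and 14.97, 15.05 and 14.93 at 60 nM. The 3 groups were fully separated. It rose by 6.29 at 60 nM (SE 0.14, limma adjusted p = 1.07e-06) and by 1.91 at 20 nM (adjusted p = 0.0243).

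TC01003142 on chromosome 1 read 7.63, 7.37 and 7.46 in untreated cells, 9.46, 9.51 and 9.22 at 20 nM, and 13.02, 12.92 and 12.81 at 60 nM. Its groups were also fully separated, with a rise of 5.43 at 60 nM (SE 0.10, limma adjusted p = 4.56e-07) and of 1.91 at 20 nM (adjusted p = 0.00446). TC01000226 on the same chromosome read 8.01, 8.28 and 8.79, then 9.64, 9.61 and 9.57, then 13.84, 13.85 and 13.61, in the same order of groups. It rose by 5.41 at 60 nM (SE 0.18, limma adjusted p = 6.66e-06), and its 1.25 at 20 nM missed the test (adjusted p = 0.208) although the arrays did not overlap.

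TC22001130 on chromosome 22 started higher, at 11.07, 11.51 and 12.22, and reached 16.27, 16.32 and 16.46 at 60 nM. All 3 of its 20 nM arrays held 13.58. It rose by 4.75 at 60 nM (SE 0.25, limma adjusted p = 4.63e-05). TC21000560 on chromosome 21 read 8.73, 8.49 and 8.71 untreated, 8.51, 9.13 and 8.99 at 20 nM, and 13.02, 12.91 and 13.12 at 60 nM. Its 20 nM arrays overlapped the untreated ones, and it rose by 4.37 at 60 nM (SE 0.16, limma adjusted p = 9.21e-06). The next rises were those of TC17000550 (3.90), TC17002215 (3.68), and TC01001071 and TC01001136, which shared a row and rose by 3.65.

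Of the 10 largest falls, 7 lay in the long stretches, as did 727 of all 1039 unnamed clusters above background that were lower. TC01005808 on chromosome 1 read 9.62, 9.41 and 9.38 in untreated cells, 7.96 on all 3 arrays at 20 nM, and 5.43, 5.06 and 5.09 at 60 nM. Its 60 nM arrays were all below background, so that the fall was at least 3.65 on the log2 scale (measured difference -4.28, limma adjusted p = 1.81e-06). TC10002884 on chromosome 10 read 9.51, 9.66 and 9.77 untreated, 9.27, 9.28 and 9.25 at 20 nM, and 7.08, 6.84 and 6.48 at 60 nM, a difference of -2.85 (SE 0.14, limma adjusted p = 3.65e-05).

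TC15001710 on chromosome 15 was the brightest, in untreated cells, of these 10. It read 12.72, 13.23 and 13.15 untreated, 12.45, 11.80 and 12.76 at 20 nM, and 10.51, 10.45 and 10.24 at 60 nM. The 20 nM arrays overlapped the untreated ones and lay above those at 60 nM, where the difference was -2.63 (SE 0.25, limma adjusted p = 0.00056). The other falls by the same rule ran from -2.71 (TC01005286) to -2.42 (TC10002708), by way of TC17001365, TC01005329, TC01002630, TC19001932 and TC06003226. TC01002630 was below background on all 60 nM arrays, with a fall of at least 1.21. Repeated values within a group, as in TC22001130 and TC01005808, can make the SE too small, and 14.7% of the called unnamed clusters had one.

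**Figure D3:**
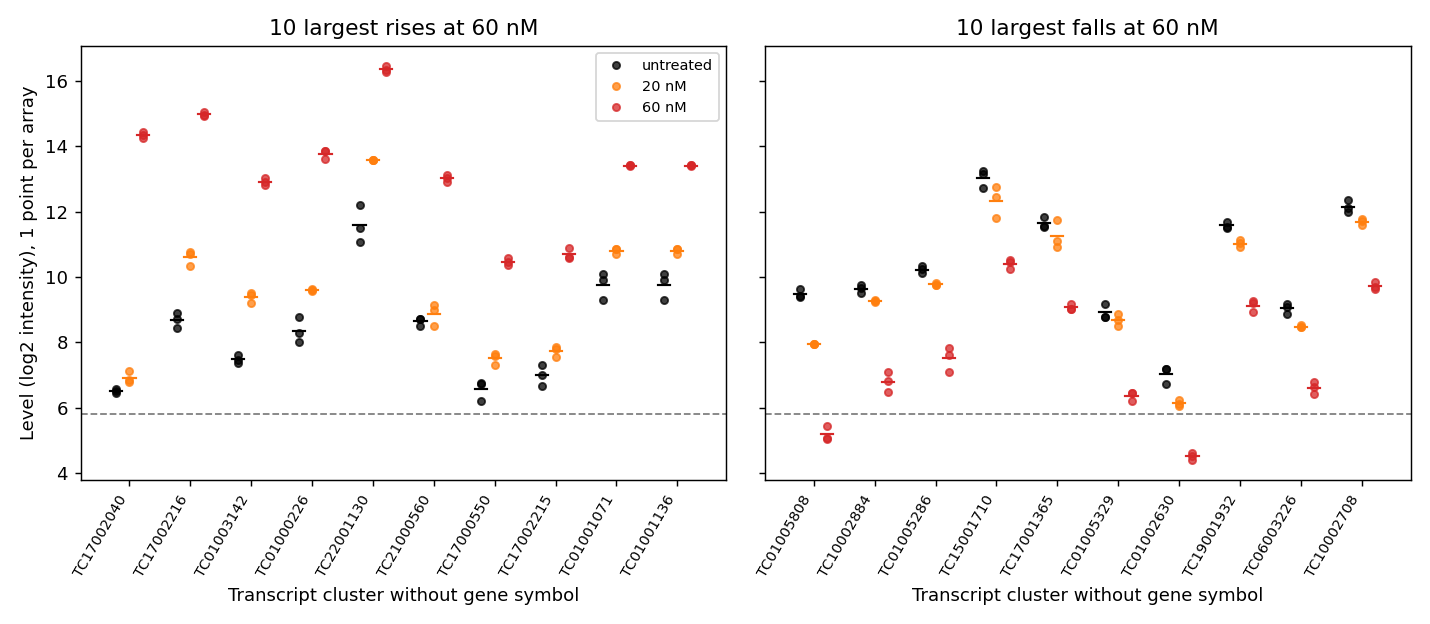
Level (log2 intensity) on each array for the 10 largest rises and the 10 largest falls at 60 nM, with 1 point per array, short lines at the group means and a dashed line at the background level. The groups at 60 nM are separated from the untreated ones throughout, from 6.57, 6.46 and 6.52 to 14.24, 14.35 and 14.44 for TC17002040.

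Several of the largest rises came as pairs of adjacent numbers. Beside TC17002040, TC17002039 read 6.15, 6.03 and 6.27 untreated and 10.22, 9.15 and 9.59 at 60 nM, a rise of 3.50 (SE 0.24, limma adjusted p = 0.000136). TC17002215 lies directly before TC17002216. TC21000561, directly after TC21000560, rose by 3.25 (SE 0.33, limma adjusted p = 0.000869), and TC17000551, after TC17000550, by 1.72 (SE 0.23, limma adjusted p = 0.00289). TC01001072 and TC01001137, which follow the pair of equal rows on chromosome 1, rose by 1.46 each (limma adjusted p = 0.0029).

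Across unnamed clusters above background, the 60 nM differences of clusters 1 number apart correlated with a Pearson coefficient of 0.38 in the long stretches (1189 pairs) and 0.36 among named genes (821 pairs). In the long stretches the coefficient was 0.09 at 2 numbers, 0.02 at 3 and 0.02 at 10. Among named genes it was 0.15 at 2, 0.18 at 3, 0.07 at 5 and 0.19 at 10. These coefficients describe pairs of clusters on the same 9 arrays, and adjacent clusters may share sequence.

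Runs of 3 or more consecutive numbers called in the same direction were few, 10 higher and 16 lower, and the longest had 4 clusters. They held 31 of the higher and 51 of the lower clusters. TC16001806 to TC16001809 on chromosome 16 were the 1 run of 4 that was higher, by 0.28 to 1.00. TC02003380 to TC02003383 were lower by 0.57 to 0.92, TC07003027 to TC07003030 by 0.37 to 0.87, and TC12002395 to TC12002398 by 0.21 to 0.80. TC01004679 to TC01004681 rose by 1.39 to 2.91. The first of these 3 read 8.07, 7.54 and 6.88 untreated and 10.49, 10.41 and 10.33 at 60 nM.

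Some unnamed clusters had a named gene directly beside them in number. Shares were counted over pairs of an unnamed cluster and a 1-symbol cluster directly beside it. A 1-symbol cluster can enter more than 1 pair. In 524 pairs with an unnamed cluster that was higher at 60 nM, the 1-symbol cluster was itself higher in 17.4% and lower in 10.7%. Beside unnamed clusters that were not called, it was higher in 7.88% of 15165 pairs and lower in 10.7%. Beside unnamed clusters that were lower, it was higher in 5.86% of 324 pairs and lower in 16.7%. A neighbour in number is next in the order of the IDs, at a distance that was not measured, and does not name the cluster.

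The clearest named neighbours were the genes of U3, the small nucleolar RNA that guides early cleavage of ribosomal RNA precursors. TC17001232 is numbered between SNORD3B-2 and SNORD3D, TC17000231 directly follows SNORD3A, and TC17001237 directly precedes SNORD3C. TC17001232 read 16.65, 16.66 and 16.97 untreated, 17.996, 18.12 and 17.88 at 20 nM, and 18.81, 18.78 and 18.99 at 60 nM. TC17000231 and TC17001237 shared 1 row that read 16.70, 16.67 and 16.98, then 18.01, 18.12 and 17.88, then 18.80, 18.79 and 18.98. In both rows the 3 groups were fully separated and stood in the order of dose.

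TC17001232 rose by 2.10 at 60 nM (SE 0.11, limma adjusted p = 3.96e-05), and the shared row by 2.08 (SE 0.10, limma adjusted p = 3.46e-05). The U3 clusters rose by 1.93 (SNORD3A), 2.24 (SNORD3B-1 and SNORD3B-2, 1 shared row), 2.17 (SNORD3C) and 2.09 (SNORD3D). At 20 nM the 3 unnamed clusters passed the test with 1.24 and 1.22 (limma adjusted p = 0.0414 and 0.0396). The U3 clusters did not, with differences of 0.88 to 1.07 (limma adjusted p from 0.357 to 0.456). The difference between these calls was not tested, and copies of U3 that share probes cannot be told apart.

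In number, TC01003142 and TC01000226 lay near clusters of U1, the small nuclear RNA of the spliceosome that recognises 5′ splice sites. Other rises on chromosome 1, such as those of TC01001071 and TC01001136, had unnamed clusters directly before and after them. TC01003142 directly precedes TC01003143, which held the same row as a named U1 pseudogene cluster, RNU1-10P, and did not pass the test (15.65 untreated and 15.93 at 60 nM, limma adjusted p = 0.368). Farther on, TC01003145 rose by 1.77 (limma adjusted p = 8.85e-05) and RNU1-12P, the next in number, by 2.67 (limma adjusted p = 0.000191). TC01003144, between them, did not pass (-0.15, limma adjusted p = 0.142). TC01000226 follows a cluster with several symbols that read 16.95 untreated and 17.57 at 60 nM, a rise of 0.62 (limma adjusted p = 0.00442) against the 5.41 of TC01000226 itself.

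**Figure D4:**
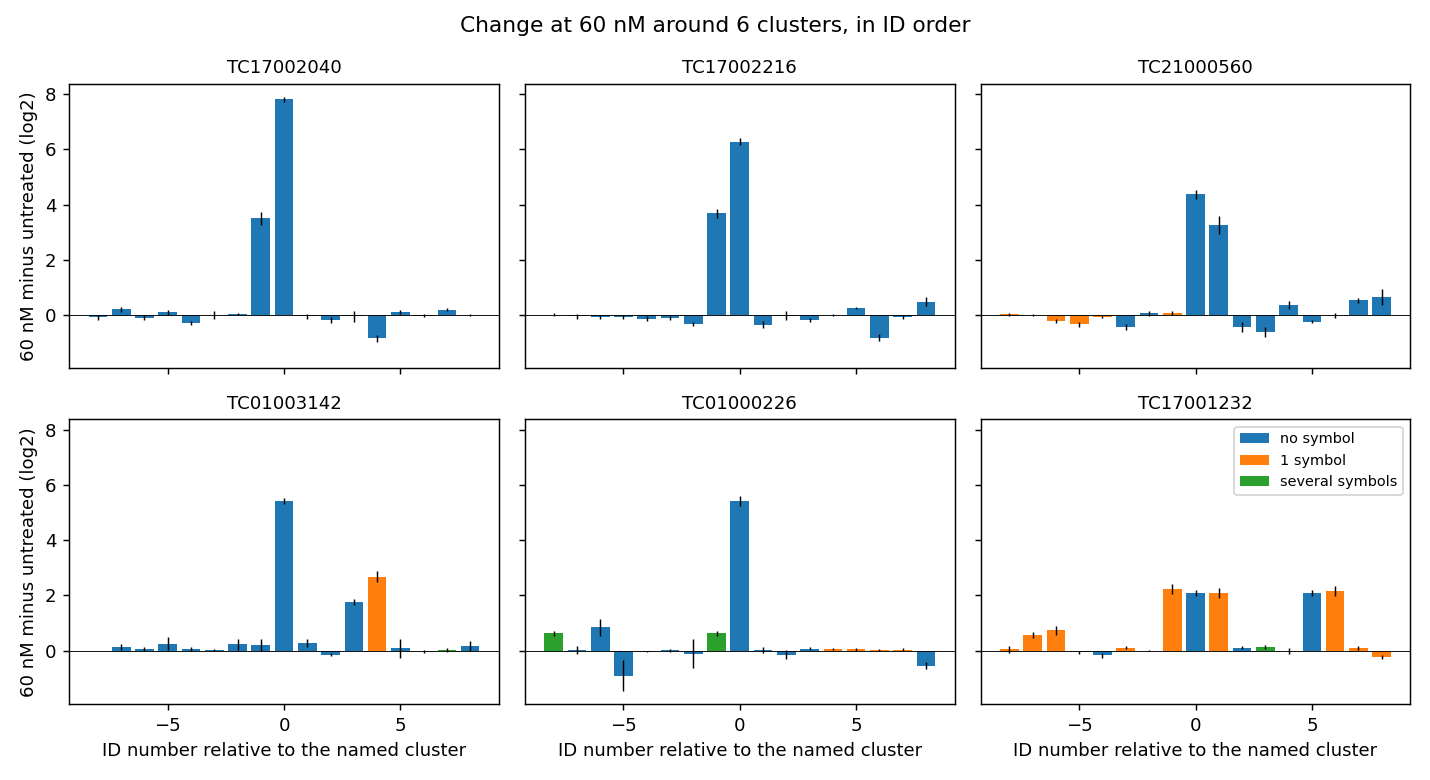
Difference at 60 nM (log2, bars, with SE) for clusters up to 8 numbers from 6 unnamed clusters, in ID order and coloured by annotation class. TC17002040, TC17002216 and TC21000560 rose with 1 adjacent unnamed cluster each, and TC17001232 with SNORD3B-2 and SNORD3D on either side (2.24 and 2.09).

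The balance of higher and lower differed between the number stretches. In the long stretches 609 (2.68%) were higher and 858 (3.78%) lower, and 28.6% of those above background were called. Among named genes 539 (2.82%) were higher and 373 (1.95%) lower, and 14.7% of those above background were called. Over all 67528 clusters 4.13% were higher and 6.06% lower, so more falls than rises is also the pattern of the whole array. On all chromosomes together, 9.32% of the unnamed clusters above background were higher and 11.8% lower.

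Chromosome 16 had 81 higher and 50 lower unnamed clusters. Of its 337 above background 20.8% were higher and 14.2% lower. Of its 1-symbol clusters above background 11.9% were higher and 30.5% lower. Its 81 higher unnamed clusters held 75 distinct rows, 45 of the 81 lay in the long stretch, and their median difference was 0.70. The largest rise there, named after its values were seen, was TC16001990, which read 8.17, 7.98 and 8.02 untreated and 10.41, 10.01 and 10.51 at 60 nM (2.26, SE 0.16, limma adjusted p = 0.000176). Chromosome 21 had 20.0% of 115 unnamed clusters above background higher. Chromosome 17 had 17.7% of 436 lower and chromosome 20 17.2% of 174. No test between chromosomes was made.

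**Figure D5:**
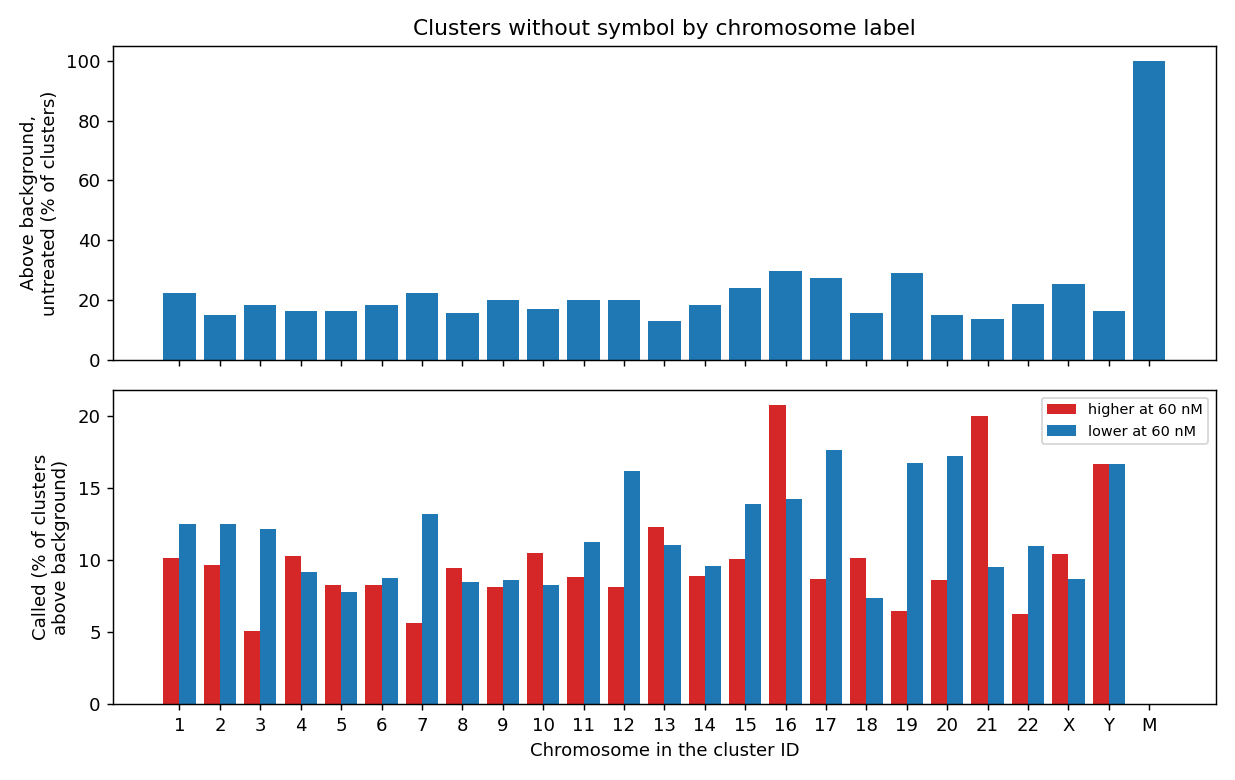
Clusters without a symbol by the chromosome in their ID. The upper bars give the share (%) above background in untreated cells and the lower bars the share (%) of those above background that were higher or lower at 60 nM. Chromosome 16 stands at 29.8% above background with 20.8% higher, and chromosome M at 100% above with 0 called.

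A few unnamed clusters crossed the background level as a group. In 82 all 3 untreated arrays were at or below it and all 3 at 60 nM above it, and in 87 the reverse held, with a passed test in each. Over all 67528 clusters 4.13% were called higher and 6.06% lower, with or without a crossing. Crossings were counted for unnamed clusters only, so no share of all clusters can be set beside 82 and 87. The brightest of the 82, named after its values were seen, was TC19001995. It read 5.28, 5.32 and 5.36 untreated, 5.52, 5.55 and 5.38 at 20 nM, and 8.31, 7.78 and 8.32 at 60 nM, a rise of at least 2.32 (limma adjusted p = 3.62e-05).

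At 20 nM, 6 unnamed clusters were higher and 3 lower than in untreated cells by limma's test, 0.0213% of them against 0.0355% of all clusters (0.0267% higher and 0.00889% lower). At an unadjusted p under 0.05 there were 2107 of 42204, about the share of 0.05 that would pass with no change in any cluster. With each distinct row tested once, 7 were called. The higher ones were TC01003142, TC17002216, the 3 clusters beside U3 genes, and TC18000832, which lay below background in all groups and outside the naming rule (0.41, adjusted p = 0.0494). With array medians made equal 2 were higher and 3 lower, and with arrays shifted by their hybridisation controls 56 were higher and 7 lower.

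The lower clusters at 20 nM were TC01005808 (-1.51, limma adjusted p = 0.0205), TC01005459 (-0.64, adjusted p = 0.0443) and TC20001244 (-0.55, adjusted p = 0.00446). TC20001244 read 6.23, 6.21 and 6.20 untreated, 5.65, 5.65 and 5.69 at 20 nM, and 4.94, 4.93 and 4.97 at 60 nM. Its groups did not overlap, but both treated groups were below background, which leaves a fall of at least 0.39. TC01005459 and TC01005808 held 1 value on all 3 arrays at 20 nM. The number called rested on single arrays: it was 0 without untreated replicate 2 or without 20 nM replicate 1, 2 without untreated replicate 1 or without 20 nM replicate 3, 3 without 60 nM replicate 1, and 4 without 60 nM replicate 2.

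Between the doses, 1219 unnamed clusters were higher at 60 nM than at 20 nM and 947 lower by limma's test, 5.13% of them against 8.61% of all clusters (3.9% higher and 4.71% lower). This split depends on the scaling. With each array shifted by its hybridisation controls, which moved the median difference of all clusters to -0.27, 416 were higher and 1398 lower. The count was 1211 without 20 nM replicate 1, 1420 without 60 nM replicate 1 and 1270 without 60 nM replicate 2. This comparison shares its 60 nM arrays with the one against untreated cells.

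TC17002040 differed by 7.42 between the doses (SE 0.09, limma adjusted p = 2.4e-07), TC17002216 by 4.38, TC01000226 by 4.16, TC21000560 by 4.14 and TC17002039 by 3.77 (limma adjusted p from 9.71e-06 to 0.000169). The largest falls between the doses were those of TC01005808 (-2.77, at least 2.14 given its level below background at 60 nM), TC10002884 (-2.47), TC01005329 (-2.31), TC01005286 (-2.26) and TC17001365 (-2.17). For TC17002040, TC17002039 and TC21000560 the difference between untreated and 20 nM was 0.40, -0.26 and 0.23, none of which passed. TC17002216 and TC01003142 had passed at 20 nM and were higher again at 60 nM, by 4.38 and 3.52.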

How the data were processed

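Total RNA was labelled with biotin and hybridised to 1-colour arrays, 1 per sample. The deposited table holds 70523 probe sets, of which 2995 are not transcript clusters. Its values are intensities on a linear scale that the authors made with RMA, per the submitters' processing notes (its version and the genome build: not given in the sources used here). On that scale the median deposited value is 21.8 and the highest 999953, and whether a further transformation was applied is unknown. RMA makes the arrays' distributions alike, so a shift common to most clusters would not be seen. The number of arrays limits the precision.

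Values were set on a log2 scale with no constant. A single limma model (version 3.58.1, R 4.3.3, lmFit and eBayes, 1 term per group) covered all 67528 clusters on the 9 arrays and was tested on simulated data. Calls used a Benjamini-Hochberg adjusted p under 0.05 over all clusters. Array summaries were compared by exact permutation. Figures used matplotlib 3.10.9.

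Named clusters passed the test, had groups that did not overlap and had a mean above background. The 10 largest rises and falls at 60 nM against untreated were taken, and 5 and 5 in the other comparisons, with the 8 brightest clusters and the 5 longest runs. Members, lists and this rule were chosen with earlier results of these data known. Alternatives were other scalings, log constants, filters, variance models, array sets and background levels. No probe sequence or genome was used.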

Additional observations from a re-analysis of the deposited data

How the results depend on the processing

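Against untreated cells at 60 nM, the 2397 unnamed clusters called stayed within 1.5 times under every alternative tried except the loss of untreated replicate 2, with a range of 1521 to 2601 over single arrays left out. The 9 calls at 20 nM became 5 with equal array medians, 63 with the hybridisation control shift (which moved the median difference of all clusters by 0.29), 5 among clusters with no repeated value, 0 in a limma fit of only the 6 arrays compared, 0 without untreated replicate 3 and 20 nM replicate 2 together, and 0 to 11 with single arrays left out. Beside these counts of 0 from limma, 2107 of 42204 had an unadjusted p under 0.05 in the fit of all arrays. That is about the share of 0.05 that would pass with no change in any cluster. Between the doses the 2166 calls ran from 1211 to 2579 over single arrays left out. The number above background in untreated cells (8266) became 5501 at the highest background value and 19414 at the median plus 1, and stayed between 8232 and 8281 with an untreated array left out. Of 38 named differences none reversed. They were picked as the largest called differences with groups that did not overlap in these same arrays. Leaving out an array could therefore not reverse their direction. Every named call at 60 nM was kept in each alternative run for it, while each of the 8 named calls at 20 nM was lost in at least 5 alternatives. Some alternatives leave fewer arrays or clusters by construction, and why calls were lost was not tested for any of them.

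The labels give the groups equal replicate numbers. Deviations of same-numbered arrays from their group means correlated between -0.43 and 0.11, and those of differently numbered arrays between -0.45 and 0.52. With 3 arrays per group the deviations within a group are tied to each other. These correlations therefore cannot decide whether equal numbers mark a pairing. With the replicate block 1742 unnamed clusters were called at 60 nM against untreated, 0 at 20 nM against untreated and 1345 between the doses.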
